A study of Mus musculus with 4 samples.

Results

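The transcripts described here are those of 10 genes of the core circadian clock and of one of its outputs in mouse liver, namely Arntl, Clock, Npas2, Per1, Per2, Per3, Cry1, Nr1d1, Nr1d2 and Dbp. They were listed by name, with earlier results of these data known. All 23 probes that carry one of these names were followed on all 4 arrays, out of 56605 probes for 37021 named genes on the array.

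C57BL/6 wild-type mice of both sexes received aristolochic acid I (AAI), a plant compound toxic to the kidney, and liver RNA was measured on single-colour microarrays. The first group was females given AAI at 5 mg/kg/day, and the second was females given corn oil, the vehicle, alone. The third was males given AAI at 2 mg/kg/day, and the fourth was males given corn oil alone. The mice were 6 weeks old and were injected intraperitoneally 5 days per week for 3 weeks. Equal amounts of RNA from 5 mice of a group were pooled and hybridized to 1 array, so that the study has 1 array per group, no replicate and no test of any difference given here. The dose differed between the sexes, so that sex and dose cannot be told apart in the AAI-treated mice. The corn oil pools are called controls here, and the 4 pools AAI females, control females, AAI males and control males. The hour of the day at which the livers were collected is not given in the sources used here.

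The circadian clock is a transcriptional feedback loop that runs in nearly every cell. BMAL1, encoded by Arntl, pairs with CLOCK or NPAS2 and activates genes that carry E-boxes, among them the period and cryptochrome genes, whose products return to repress the pair, and Nr1d1, Nr1d2 and Dbp. In liver the transcripts of the loop oscillate strongly over the day, with that of Arntl in near antiphase to those of Nr1d1 and Dbp, and pass their rhythm on to enzymes of bile acid, lipid, heme and drug metabolism.

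Values below are log2 of the processed spot signal after quantile normalization over the 4 arrays, and a log2 ratio is the difference of 2 such levels. A gene is represented by its brightest probe unless another probe is named, and genes were counted from 2-fold on, that is from a log2 ratio of 1 up or down. The spot error of a ratio combines the error estimates that the scanner software gives for the spots of both arrays. It does not cover differences between mice or between arrays. Where a gene had several probes, the SD of their AAI ratios had a median of 0.25 in females and 0.24 in males. This SD is a spread between probes on the same arrays, and it does not cover differences between mice or pools. Probes of some members lay further apart, as those of Cry1 in females (-0.33 and -1.48). The brightest probes of all 10 genes were well above background on all 4 arrays, and 20 of the 23 probes were. No member spot was among the saturated spots or among those whose processed signal had been replaced by the background value.

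Across the array, AAI treatment was accompanied by at least 2-fold higher signals of 1.37% of the genes tested in females and lower signals of 3.09%. Of the 10 clock genes, 2 were at least 2-fold higher in AAI females than in control females (Nr1d1 and Dbp) and 0 were lower. When the arrays were scaled to their 75th percentile instead, the split over all genes moved from 434 higher and 978 lower to 623 higher and 745 lower, and that of the clock genes to 1 higher (Nr1d1) and 1 lower (Per1). In males, 3.51% of all genes tested were higher with AAI and 4.59% were lower, against 0 and 1 of the 10 clock genes (Clock). The median log2 ratio of the clock genes was -0.10 in females and 0.06 in males, beside 0.04 and 0.02 over all genes above background on both arrays. The median size of their ratios was 0.48 in females and 0.39 in males, beside 0.28 and 0.27 over all these genes. A single gene of 10 in males is not read as a result about the clock genes.

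**Figure D1:**
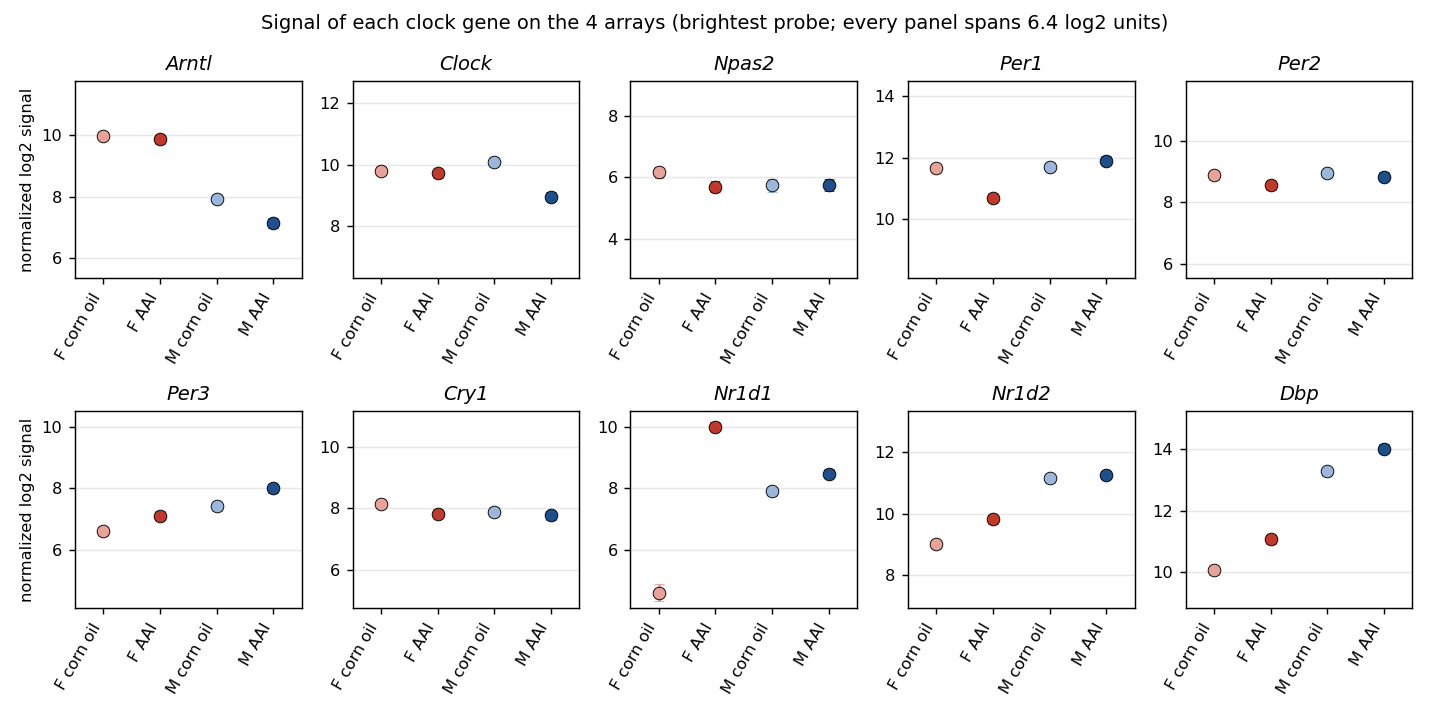
Normalized log2 signal of the brightest probe of each clock gene on the 4 arrays, with the scanner software's spot error as bars (mostly smaller than the symbol). All panels span the same number of log2 units. Nr1d1 shows the widest spread, from 4.61 in control to 10.01 in AAI females, and Arntl lies higher in both female than in both male pools.

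The activators of the loop were described first. Arntl (NM_007489), which encodes the obligate partner BMAL1, is represented by 3 probes on chromosome 7 of mouse genome build mm9, the build of the array design. The sequences of these probes are shown because all 3 separate the sexes, and none contains an in-frame stop codon in its best reading frame. They are printed 5′ to 3′ as deposited.
Arntl probe A_66_P127371: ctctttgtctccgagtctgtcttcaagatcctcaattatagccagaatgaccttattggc
Arntl probe A_55_P2735445: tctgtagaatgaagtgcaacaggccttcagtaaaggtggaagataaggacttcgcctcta
Arntl probe A_52_P267651: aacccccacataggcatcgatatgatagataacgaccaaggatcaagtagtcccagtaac

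The brightest of them, A_52_P267651 (chr7:120456978-120457037, plus strand), had an Arntl level of 9.98 in control females and 9.86 in AAI females. In control males the level was 7.94, and in AAI males it was 7.15. Both female pools were thus above both male pools, whatever the treatment. The log2 ratio of AAI-treated to control mice was -0.11 in females, smaller than its spot error of 0.20. In males it was -0.79 with a spot error of 0.21, a 1.73-fold lower signal that lies under the threshold. The male against female ratio was -2.04 in control mice, a 4.12-fold lower signal in males, and -2.72 in AAI-treated mice, a 6.58-fold lower signal.

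The other Arntl probes gave the same order of the sexes with different sizes. A_55_P2735445 (chr7:120439030-120439089) had levels of 6.70 in AAI and 7.06 in control females and of 4.91 in control males. In AAI males this Arntl probe was not well above background, so that the signal there was at least 1.16-fold lower than in control males and at least 4.01-fold lower than in AAI females. A_66_P127371, whose coordinates span 1684 bases of chromosome 7 (chr7:120435023-120436706), had levels of 8.11 and 7.84 in AAI and control females and of 6.50 and 7.13 in the corresponding male pools. By this probe Arntl was 1.63-fold lower in males with corn oil and 3.05-fold lower with AAI, and the female AAI ratio was 0.27, opposite in sign to that of the brightest probe.

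Clock (NM_007715), which encodes the main partner of BMAL1, was measured by 4 probes on the minus strand of chromosome 5. Its brightest probe (chr5:76639992-76640051) had levels of 9.72 in AAI and 9.81 in control females, of 8.96 in AAI males and of 10.10 in control males. Only the AAI male pool stood apart. The Clock ratio was -0.09 in females, within its spot error of 0.20, and -1.14 in males, a 2.20-fold lower signal with a spot error of 0.21. The next brightest Clock probe, A_52_P334670, gave -0.90 in males, 1.86-fold lower, and -0.00 in females. A_52_P279391, a dimmer Clock probe, gave -0.15 in males with a spot error of 0.32 and -0.30 in females, so that the decrease in males was not seen by every probe. The fourth, A_55_P2741789, was above background in control males only and gives no fold.

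Npas2 (NM_008719), which encodes the alternative partner of BMAL1, has 1 probe (chr1:39418941-39419000). Its levels were 5.70 in AAI females, 6.16 in control females, 5.75 in AAI males and 5.73 in control males. The Npas2 ratio was -0.46 in females with a spot error of 0.25 and 0.01 in males, under 2-fold in both.

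The repressors of the loop are the period and cryptochrome proteins, which enter the nucleus together and silence the BMAL1 partners. Per1 (NM_011065) had levels of 10.69 in AAI females, 11.66 in control females, 11.90 in AAI males and 11.70 in control males at its brightest probe (chr11:68923364-68923423, plus strand). The AAI female pool was the low one. Its Per1 signal was 1.96-fold lower than in control females, a log2 ratio of -0.97 with a spot error of 0.20 that lies just under the threshold, whereas the ratio in males was 0.19. A second Per1 probe, designed on AK081813 (chr11:68919895-68919954), gave ratios of 0.45 in females and 0.12 in males at lower levels of 6.29 to 6.89. The probes thus disagree on the direction in females.

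Per2 (NM_011066) is read by 2 probes of chromosome 1. The brighter one (chr1:93336538-93336597) had levels of 8.55 in AAI females, 8.89 in control females, 8.83 in AAI males and 8.94 in control males. These 4 values lay within 0.40 of each other, with ratios of -0.34 in females and -0.11 in males. A_55_P2737144 (chr1:93312595-93312654) spread the pools further, with Per2 levels of 7.52, 8.53, 9.36 and 8.98 in the same order. By this probe Per2 was 2.01-fold lower in AAI than in control females, with a ratio of -1.01 and a spot error of 0.21, and the male ratio was 0.38. It thus behaved like the brightest Per1 probe, low in AAI females alone, but it is not the probe that was counted.

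Per3, the period gene least needed for rhythm in mice, has 3 probes on chromosome 4, of which 1 is usable on all arrays. That probe (NM_001289878, chr4:150378473-150378532) had levels of 7.11 in AAI females, 6.61 in control females, 8.01 in AAI males and 7.42 in control males. Males were above females, and within each sex the AAI-treated pool was the higher one. The Per3 ratio was 0.50 in females, 1.42-fold higher, and 0.58 in males, with spot errors of 0.22 and 0.21. A_66_P135046 was below background on all 4 arrays. A_66_P137063 was marked as an outlier spot on the array of control females and was left out.

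Cry1 (NM_007771), which encodes a strong repressor of the BMAL1 pairs, was read differently by its 2 probes. The brightest (chr10:84647094-84647153) had levels of 7.82 in AAI females, 8.15 in control females, 7.77 in AAI males and 7.89 in control males, within 0.38 of each other. Its ratios were -0.33 in females and -0.12 in males. A_52_P420500 (chr10:84594731-84594790) had Cry1 levels of 6.30, 7.78, 5.19 and 6.36 in the same order. By this probe Cry1 was 2.79-fold lower with AAI in females, with a ratio of -1.48, and 2.25-fold lower in males, with a ratio of -1.17. It was also 2.68-fold lower in control males than in control females. Both probes are well above background on all 4 arrays, and the files give no exon or isoform for either.

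The nuclear receptors REV-ERBα and REV-ERBβ, encoded by Nr1d1 and Nr1d2, bind heme and repress Arntl, which closes the second arm of the loop. Nr1d1 (NM_145434) has 1 probe, whose 60 bases cover coordinates 503 bases apart (chr11:98630526-98631028, minus strand). Its sequence is shown because the largest ratio among the clock genes rests on it alone.
Nr1d1 probe A_51_P223776: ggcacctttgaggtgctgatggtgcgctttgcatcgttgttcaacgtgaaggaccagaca

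The Nr1d1 level was 10.01 in AAI females, 4.61 in control females, 8.49 in AAI males and 7.90 in control males. The control female pool was far below the other three. In linear terms the processed signals of this Nr1d1 spot were 1034, 22.7, 342 and 258 in the same order. On the array of control females the spot's mean signal was 65.5 over a background of 41.5, so that the lowest Nr1d1 value was called well above background yet lay close to it.

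In females Nr1d1 was 42.2-fold higher with AAI, a log2 ratio of 5.40 with a spot error of 0.32. This was place 16 by size among 29714 genes above background on both female arrays. With a background correction by the normexp model and an offset of 50 added to every signal, which draw low signals together, the ratio was 3.28. In males the ratio was 0.58 with a spot error of 0.21. The size of the female ratio thus depends on 1 spot of low signal in 1 pool, and Nr1d1 has no second probe to set beside it.

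Nr1d2, the paralog, has 3 probes on chromosome 14 that can be set beside Nr1d1. The brightest (BC096461, chr14:19036568-19036627) had levels of 9.82 in AAI females, 9.0 in control females, 11.25 in AAI males and 11.15 in control males. As for Nr1d1, the control female pool was the lowest, but both male pools were above both female pools. The Nr1d2 ratio in females was 0.81, a 1.76-fold higher signal with a spot error of 0.20, and by the other probes it was 1.01 and 1.04, that is 2.01-fold and 2.06-fold higher. In males the probes gave 0.10, 0.33 and 0.23.

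Dbp (NM_016974) encodes a PAR-domain leucine zipper protein that activates D-box genes of drug and lipid metabolism and is among the most rhythmic transcripts of liver. Its brightest probe (chr7:52965265-52965324, plus strand) had levels of 11.09 in AAI females, 10.07 in control females, 14.02 in AAI males and 13.29 in control males. Both male pools stood far above both female pools, and within each sex the AAI-treated pool was the higher one. The Dbp ratio was 1.02 in females, a 2.02-fold higher signal that sits on the threshold, and 0.73 in males, 1.66-fold higher, each with a spot error of 0.20. The second Dbp probe (chr7:52965461-52965520) gave 0.47 in females and 0.75 in males. The call in females therefore rests on the choice of probe, and it was also lost under 75th percentile scaling, where the Dbp ratio was 0.96.

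**Figure D2:**
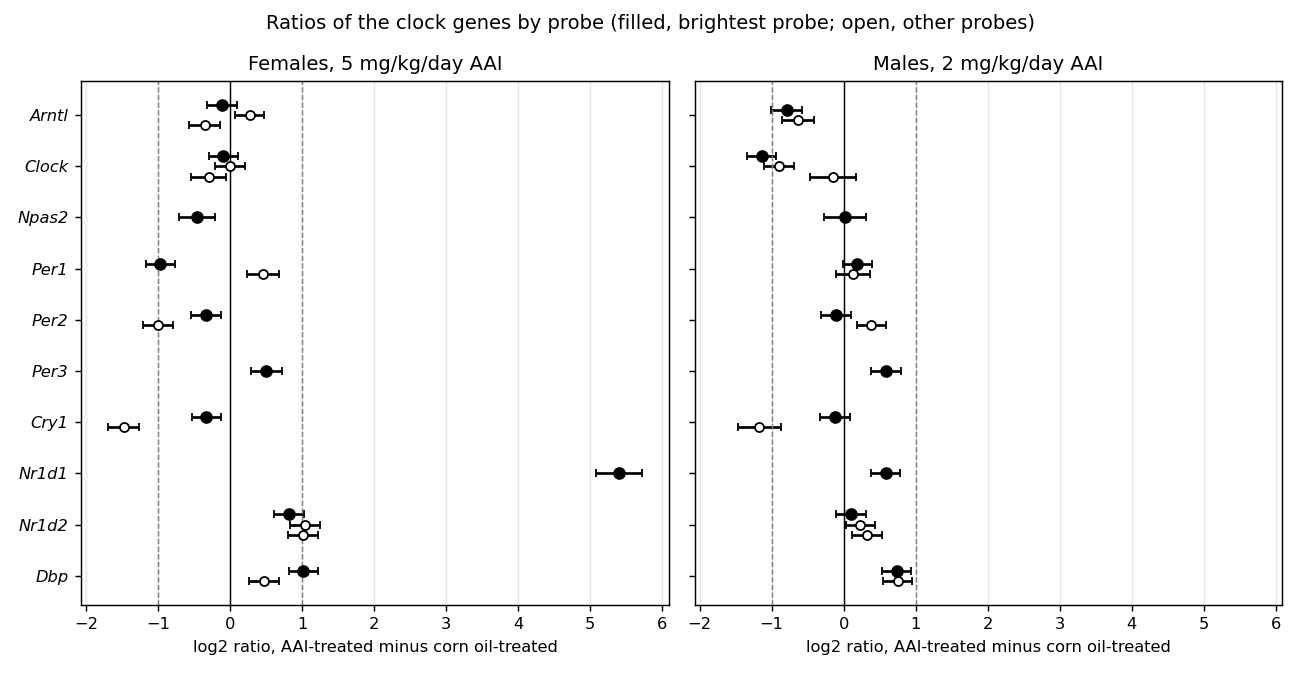
Log2 ratio of AAI-treated to control mice for every member probe above background on both arrays, in females (left) and males (right), with spot errors as bars and dashed lines at the 2-fold threshold. Nr1d1 in females, at 5.40, lies outside the range of all other probes, and the probes of Cry1, Per1 and Per2 lie apart from each other in females.

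The same members were then compared between the sexes. In control mice, 3.83% of all genes tested were at least 2-fold higher in males than in females and 1.86% were lower. Of the 10 clock genes, 3 were higher in males (Dbp, Nr1d1 and Nr1d2) and 1 was lower (Arntl). Dbp was 9.29-fold higher, with ratios of 3.22 and 2.97 by its probes. Nr1d1 was 9.79-fold higher, with a ratio of 3.29 that was 1.66 under normexp. Nr1d2 was 4.44-fold higher, with a ratio of 2.15, and its other probes gave 1.85 and 2.20. The D-box activator and both REV-ERB genes were thus the members with the higher signal in males, beside the lower Arntl signal given above. Per3 followed at 0.81 and the remaining genes lay between -0.43 and 0.28. The median size of the ratios was 0.62, beside 0.25 over all genes above background on both arrays. The direction of the 4 calls was the same under the 8 alternatives that give a ratio. Among these, leaving out the filter could not change it, and the handling of outlier and replaced spots reached it only through the normalization.

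In AAI-treated mice, 3.25% of all genes were at least 2-fold higher in males and 1.16% were lower, with 1024 higher and 366 lower against 833 and 492 under 75th percentile scaling. Of the clock genes, 3 were higher in males (Dbp, Nr1d2 and Per1) and 2 were lower (Arntl and Nr1d1), under either scaling. Dbp was 7.64-fold higher in males and Nr1d2 2.71-fold higher. Per1 was 2.31-fold higher by its brightest probe, while its second probe gave a ratio of -0.48 and the mean of both probes 0.36, short of the threshold. Nr1d1 was 2.88-fold lower in males. The order of the sexes for Nr1d1 was therefore opposite in control and in AAI-treated mice, control females having the lowest and AAI females the highest of the 4 levels. These comparisons share arrays with those of AAI and corn oil, and their values are set side by side only.

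**Figure D3:**
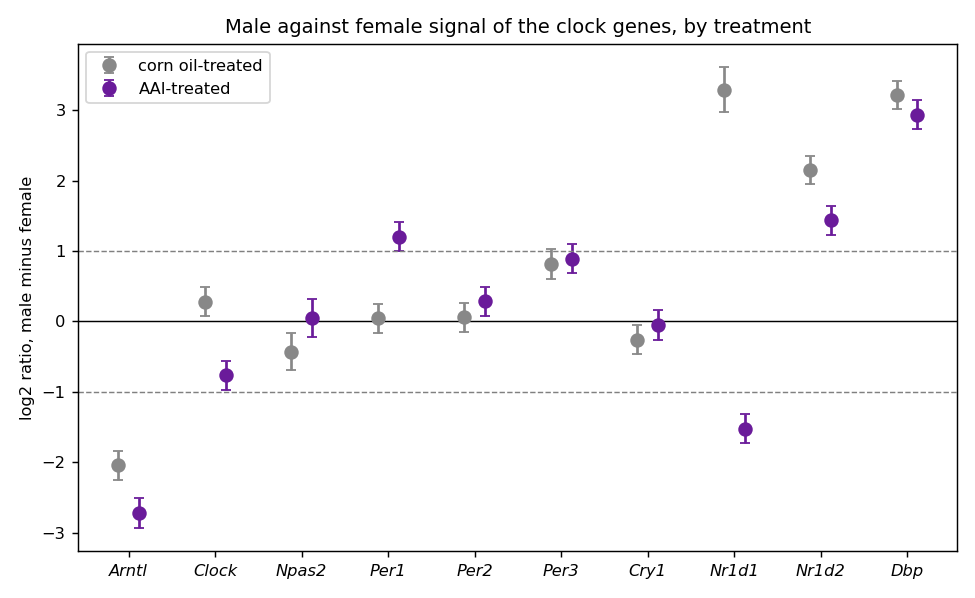
Log2 ratio of male to female signal for each clock gene in control (grey) and AAI-treated (purple) mice, with spot errors as bars and dashed lines at the 2-fold threshold. Dbp and Nr1d2 lie above and Arntl below the threshold lines in both treatments, and Nr1d1 goes from 3.29 to -1.53.

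Since the activator gene Arntl and the genes its product activates oscillate against each other in liver, the difference between their signals on 1 array was also followed, relative to control females. Such a difference does not depend on a factor common to an array. The Dbp minus Arntl difference was larger by 1.13 in AAI females, by 5.26 in control males and by 6.78 in AAI males. For Nr1d1 minus Arntl the shifts were 5.51, 5.33 and 6.71 in the same order, and for Nr1d2 minus Arntl they were 0.93, 4.19 and 5.08. Control females thus lay at one end for each of these pairs and AAI males at the other. Each shift follows from the levels of its 2 genes given above and is no further result. AAI females lay near control females by Dbp and Nr1d2, and near control males by Nr1d1. The Nr1d1 shifts rest on the control female spot that lay close to background. Under normexp the Nr1d1 ratios to that pool fell from 5.40 to 3.28 in AAI females and from 3.29 to 1.66 in control males.

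Promoter windows of the members were read from RefSeq (GRCm38.p6), 250 bases before to 50 after each gene start. A window was found for 9 of the 10 genes (13 windows, some genes having several starts), and for Per2 none was read. They were searched on both strands for the E-box CACGTG, bound by the BMAL1 pairs, the D-box TTATGTAA or TTACGTAA, bound by DBP, the core TAGGTCA or TGGGTCA of the element bound by the REV-ERB receptors, the cAMP response element TGACGTCA and the palindromic glucocorticoid response element. The 4 windows that hold a match are shown with the match in capitals.
Per1 chr11:69098699-69098998, plus strand: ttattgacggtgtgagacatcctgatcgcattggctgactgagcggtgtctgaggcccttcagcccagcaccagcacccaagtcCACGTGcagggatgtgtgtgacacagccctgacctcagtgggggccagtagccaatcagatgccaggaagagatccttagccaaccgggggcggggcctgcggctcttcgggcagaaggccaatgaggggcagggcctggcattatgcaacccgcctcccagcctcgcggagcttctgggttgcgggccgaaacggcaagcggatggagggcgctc
Cry1 chr10:85185005-85185304, minus strand: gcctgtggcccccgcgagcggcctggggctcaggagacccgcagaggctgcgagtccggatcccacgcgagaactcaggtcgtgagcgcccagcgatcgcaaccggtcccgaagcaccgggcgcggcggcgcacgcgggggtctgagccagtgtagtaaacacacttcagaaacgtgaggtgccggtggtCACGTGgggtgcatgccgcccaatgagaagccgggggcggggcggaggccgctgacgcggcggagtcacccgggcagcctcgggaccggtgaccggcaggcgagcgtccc
Per3 chr4:151044616-151044915, minus strand: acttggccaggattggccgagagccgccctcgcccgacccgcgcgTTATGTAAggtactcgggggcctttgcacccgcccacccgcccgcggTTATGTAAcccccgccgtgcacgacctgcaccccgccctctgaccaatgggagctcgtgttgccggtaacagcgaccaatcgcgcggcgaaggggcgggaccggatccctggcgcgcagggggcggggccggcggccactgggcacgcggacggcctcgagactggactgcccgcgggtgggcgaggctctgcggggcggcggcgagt
Arntl chr7:113207261-113207560, plus strand: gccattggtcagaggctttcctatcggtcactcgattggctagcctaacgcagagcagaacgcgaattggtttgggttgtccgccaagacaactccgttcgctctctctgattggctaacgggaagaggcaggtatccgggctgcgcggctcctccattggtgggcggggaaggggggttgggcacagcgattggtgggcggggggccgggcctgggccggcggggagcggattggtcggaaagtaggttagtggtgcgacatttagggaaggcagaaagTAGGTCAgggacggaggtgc

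Counted from each gene start, the E-box began at base -166 of Per1 and -60 of Cry1, and 7.15% of all 32851 promoter windows hold one. Per3 held 2 D-boxes, at -205 and -158, against 1.06% of all windows with any. The receptor element core began at base 31 of the transcribed side at an Arntl start, and 6.45% of all windows hold it. No cAMP or glucocorticoid response element, present in 1.79% and 0.00913% of all windows, was found in a member window. The windows of Nr1d1, Nr1d2, Dbp, Clock and Npas2 hold none of these letters, which says nothing of the rest of these genes. A match is a run of letters and no measure of binding.

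The wider clock was taken from 2 lists of genes, which were written with earlier results of these data known. Of 16 feedback partners (further receptors, PAR-domain factors, kinases and ubiquitin ligases of the loop), 14 were above background on at least one array of each comparison, and Rorb and Bhlhe41 were not. The female ratios of these 14 had a median of -0.19 and lay between -0.98 for Btrc, which encodes a ubiquitin ligase subunit that marks period proteins for degradation, and 0.27 for Timeless. Both ends of this range were named after their values were seen. A second Btrc probe gave -0.09 in females, and the male ratio of Btrc was -0.66.

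In males 0 of these 14 were at least 2-fold higher and 1 was lower, with a median ratio of 0.17. Nfil3, whose product E4BP4 competes with DBP for D-boxes, had levels of 9.96 in AAI and 11.19 in control males and of 11.55 and 12.32 in AAI and control females. Nfil3 was 2.35-fold lower with AAI in males, with a ratio of -1.23 and of -1.26 by its second probe, and its female ratio was -0.77. In control mice Nfil3 was 2.19-fold lower in males than in females. Tef, a PAR-domain paralog of Dbp, was 2.19-fold higher in males than in females with corn oil and 3.49-fold higher with AAI, with AAI ratios of -0.21 in females and 0.47 in males.

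Of 20 liver clock outputs, all were above background on every array. In females 1 was at least 2-fold higher with AAI and 2 were lower, with a median ratio of -0.23, and in males 2 were higher and 1 was lower, with a median of -0.02. Rgs16, a regulator of G protein signaling, had levels of 10.48 in AAI females, 11.88 in control females, 11.47 in AAI males and 8.23 in control males. The control male pool was far below the other 3 pools, and Rgs16 was 2.65-fold lower with AAI in females and 9.42-fold higher in males. Usp2, a deubiquitinase, had levels of 8.23, 9.39, 11.44 and 10.26 in the same order and was 2.23-fold lower in females and 2.27-fold higher in males. Its second probe gave -0.66 in females and 1.19 in males.

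Elovl3, an elongase of very long fatty acids with higher expression in male liver, had levels of 6.89 in AAI females, 7.69 in control females, 7.87 in AAI males and 13.58 in control males. The control male pool alone was high, and Elovl3 was 52.3-fold lower with AAI in males. In females its ratio was -0.80. Cys1, which encodes the ciliary protein cystin, was 8.22-fold higher with AAI in females, with a level of 10.46 against 7.42 in control females and 7.61 and 7.73 in the male pools. The remaining outputs were under 2-fold in both sexes by their brightest probe. Among them Noct, a deadenylase of the clock output listed as Ccrn4l in the files, had a ratio of 0.01 in females by its brightest probe but of -3.02 and -2.44 by the other probes, and was named after its values were seen.

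**Figure D4:**
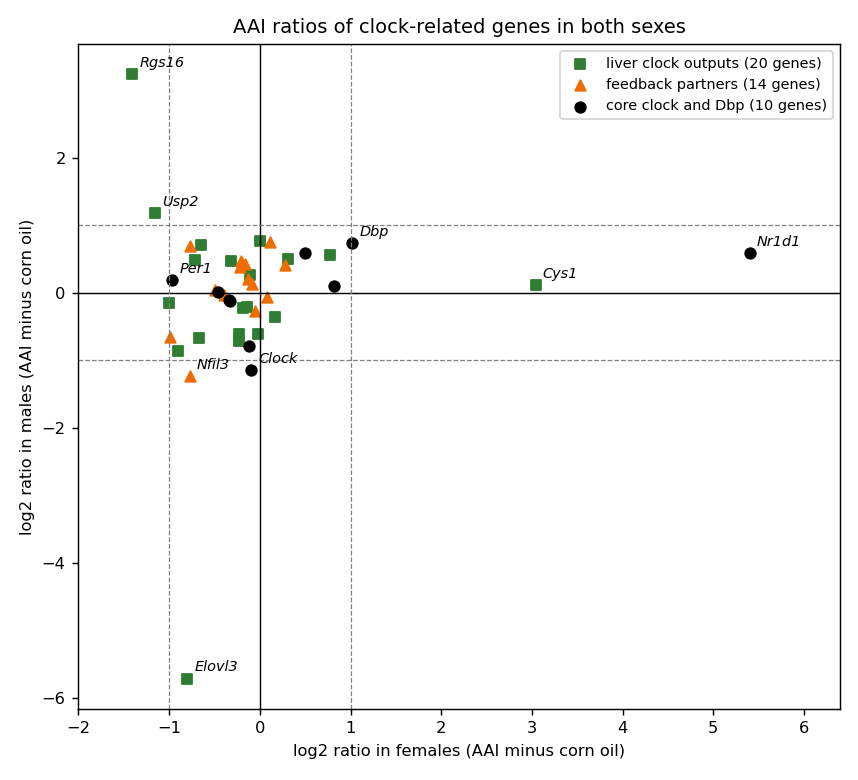
AAI ratio in females (horizontal) against males (vertical) for the clock genes (circles), the feedback partners (triangles) and the liver clock outputs (squares), with dashed lines at the 2-fold threshold and names for genes past it, and for Per1. Most genes lie inside the dashed square, Nr1d1 and Cys1 lie far right, Rgs16 and Usp2 lie at upper left, and Elovl3 lies far below.

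Since the period genes also respond to glucocorticoids, 10 transcripts responsive to these hormones were listed beside them. In females 0 were at least 2-fold higher with AAI and 3 were lower (Tsc22d3, Mt1 and Mt2), with a median ratio of -0.54. In males 2 were higher (Mt1 and Mt2) and 0 were lower, with a median of 0.52. The male ratios ran from -0.96 for Tsc22d3, lower in both sexes, to 3.17 for Mt2. Over all genes tested, 1.37% were higher and 3.09% lower in females, and 3.51% and 4.59% in males. Mt1 and Mt2, the metallothioneins, also respond to metals. The part of a hormone response in the Per1 and Per2 values was not tested.

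Markers of other tissues differed between the pools and are given for the results above. In bulk RNA, fewer cells of a type and less RNA per cell cannot be told apart. All 8 hepatocyte markers were under 2-fold in every comparison, with summed levels of 20.58 to 20.69. Quantile normalization gives the brightest probes of each array much the same values. Alb, the brightest marker, had 19.12 in both female pools and in control males and 19.15 in AAI males. The summed level was therefore bound to vary little and is no measure of hepatocyte content. All 12 skeletal muscle markers were at least 2-fold higher with AAI in both sexes, with summed levels of 15.57 in AAI and 10.56 in control females and of 18.57 and 12.62 in the corresponding males. In males 5 of 6 adrenal cortex, 3 of 5 chromaffin cell and 4 of 6 fat markers were higher with AAI, and 1 adrenal cortex marker (Mc2r) was lower. Their summed levels were 15.51, 14.12 and 15.66 in AAI and 12.05, 11.86 and 12.49 in control males. These counts depend on the probe. Dbh and Plin1 had male ratios of 0.37 and -0.72 by their brightest probes and of 5.11 and 2.15 by another. Cyp21a1 had 3.78 by its brightest probe and 0.46 by another. In females 0 adrenal cortex, 0 chromaffin cell and 1 fat marker (Adipoq) were higher, with summed levels of 9.98, 11.45 and 12.33 in AAI and 9.99, 11.46 and 12.19 in control females.

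**Figure D5:**
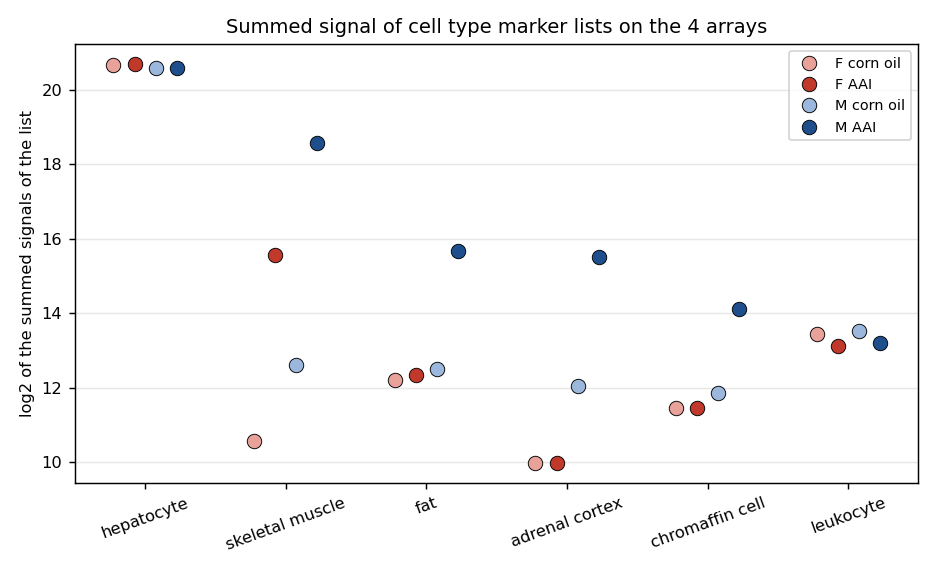
Log2 of the summed signals of each marker list on the 4 arrays, from 5 to 12 genes a list. Hepatocyte markers lie at 20.58 to 20.69 on all arrays, where quantile normalization holds the brightest probes at much the same values. Muscle markers are higher in both AAI-treated pools, and fat, adrenal cortex and chromaffin cell markers are highest in AAI males.

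Muscle markers were thus higher with AAI in both sexes. Beside them, Nr1d1 and Dbp had AAI ratios of 5.40 and 1.02 in females and of 0.58 and 0.73 in males. Clock had a ratio of -0.09 in females and of -1.14 in males, where most fat and adrenal cortex markers were also higher. Muscle and fat express the clock as liver does. The part of these tissues in the results was not tested. In control males, 10 of 12 muscle and 6 of 6 adrenal cortex markers were at least 2-fold higher than in control females, beside the sex differences of Dbp, Nr1d1, Nr1d2 and Arntl. In AAI males, 12 of 12 muscle, 6 of 6 adrenal cortex, 4 of 5 chromaffin and 4 of 6 fat markers were at least 2-fold higher than in AAI females, beside the differences of Dbp, Nr1d2, Per1, Arntl and Nr1d1. Of 6 leukocyte markers, 1 (Adgre1) was at least 2-fold lower with AAI in females and 0 in males.

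Finally, the genes outside the members with the pattern over the 4 pools nearest to those of Arntl and Dbp were listed, by the root mean square distance between mean-centered log2 levels over 28224 genes above background on all arrays. For Arntl these were Acmsd, 8430408G22Rik, Tubb2a, Rnf125 and Nt5e, at distances of 0.29 to 0.41. Acmsd, an enzyme of tryptophan breakdown, had levels of 10.32 and 10.65 in AAI and control females and of 8.37 and 8.53 in the males. For Dbp they were Asns at 0.26, then Cidec, Eif2s3x, Dusp26 and BX528370 at 0.67 to 0.84. Asns, asparagine synthetase, had levels of 7.69 and 6.77 in the female and 10.19 and 10.16 in the male pools. With 4 points of which 2 are of each sex, a small distance can arise from a sex difference alone.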

How the data were processed

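Total liver RNA was pooled from 5 mice per group, labelled with Cy3 and hybridized, 1 array to a group, and read with Feature Extraction 10.5.1.1. The authors deposited the intensity of each spot on a linear scale, before and after background subtraction and trend correction, with an error estimate and quality marks, and a table of raw and quantile-normalized intensity. There are no counts in these files, and precision is limited by the number of arrays.

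Log2 of the processed intensity was taken here without control and outlier spots, spots of a probe were averaged, and the 56495 of 56605 probes measured on all 4 arrays were quantile normalized. A gene was tested when 1 or both arrays compared showed its brightest probe well above background, and a fold is a lower bound where only 1 did. The 10 alternatives were 75th percentile scaling, normexp (limma 3.58.1 in R 4.3.3, offset 50), no trend correction, averaged probes, the authors' table, no filter on dim probes, outlier spots kept, replaced spots left out, and thresholds of 3-fold and 1.5-fold. Those for the comparisons of the sexes were added after seeing the data. Python 3.11.15, numpy 2.4.6, pandas 2.3.3 and matplotlib 3.10.9 were used. The calls were tested on simulated data with changes well past the threshold only, so that calls near it were not tested there. Positions are those of the array design on mm9, and no annotation of that build was used here. The members, gene lists and rules were chosen with earlier results of these data known. All members are named with every probe, and from the wider clock lists every gene at least 2-fold changed by AAI in either sex, except a feedback partner that is not reported here and is left out of the list and its counts. The other lists named are markers of hepatocytes, skeletal muscle, adrenal cortex, chromaffin cells, fat and leukocytes, and glucocorticoid-responsive genes. With 1 array per group, groups, pools and arrays cannot be told apart.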

Additional observations from a re-analysis of the deposited data

Results flagged for a closer look

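For some genes the ratio of AAI-treated to corn oil-treated mice had opposite signs in females and males. These differences between the sexes were not tested, since each group has 1 array, and the doses differed. The data of control females and AAI males also shared traits of handling. Each held 70 spots with date-like gene names, and 26 and 92 replaced spots, against 0 of either in the other pools. Trend correction changed 6.25% of the spots of AAI females and 86.7% to 93.3% on the other arrays. The part of such handling in the opposite signs was not tested. The log2 ratio of Per1 was -0.97 in females and 0.19 in males by its brightest probe. Its second probe gave 0.45 and 0.12, of the same sign in both sexes, and the mean of both probes was -0.26 in females. The ratio of Npas2 was -0.46 in females and 0.01 in males, the male value being within its spot error of 0.29. In the wider lists, Usp2 had -1.16 and 1.18, and Rgs16 had -1.41 and 3.24 in females and males.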

How the results depend on the processing

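No clock gene past the threshold changed direction under the 8 alternatives that give a ratio. Of 320 member ratios recomputed over 4 comparisons, 294 moved by less than the median SD between probes and 26 by more. Of the latter, 12 were under normexp and 14 where a gene was the mean of its probes. Leaving out the filter on dim probes cannot change a ratio, so its 40 values were the same by construction. Keeping outlier spots and leaving out replaced spots reached these ratios only through the normalization. The female count of 2 clock genes became 1 (Nr1d1) under normexp, without trend correction, with averaged probes and at 3-fold, and 4 at 1.5-fold. The Dbp ratio in females was 0.89, 0.94 and 0.74 under the first 3 of these. The male count of 1 (Clock) became 0 with averaged probes, where the ratio was -0.73, and at 3-fold, and 3 at 1.5-fold. Between AAI-treated males and females 5 became 2 at 3-fold and 7 at 1.5-fold, and with averaged probes it was 5 with Per2 (1.06) in place of Per1 (0.36). Listed feedback partners past the threshold numbered 1 in females in the authors' table and 3 at 1.5-fold, and went in males from 1 to 2 without the filter, 0 at 3-fold and 4 at 1.5-fold. Outputs went from 3 to 1 in females at 3-fold, and to 10 in each sex at 1.5-fold. Over all genes, normexp counted 139 higher and 343 lower in females and 554 and 643 in males, against 434 and 978, and 1071 and 1401. At 1.5-fold these were 2473 and 3152 of 31682 genes in females and 3022 and 3358 of 30539 in males. Apart from the thresholds, for which the count falls or grows by construction, and averaging, which brings in other probes, the cause was not tested. No paired analysis was possible because each group has 1 array, and no array could be left out for the same reason.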
